A study of Mus musculus with 14 samples.

Results

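The genes described here are 9 members of the STAT and JAK families, taken by gene symbol out of 17656 genes listed for each liver. They are the 6 transcription factor genes Stat2, Stat3, Stat4, Stat5a, Stat5b and Stat6 and the 3 kinase genes Jak1, Jak2 and Tyk2. No threshold on a measured value was used to pick them, but the families were chosen for description when earlier results of these data were known. Other genes of these families are not described here. Total RNA from the liver of 14 male C57BL/6 mice was sequenced, 1 library per mouse, and the values are TPM, in which every library sums to 1000000 and a gene's reads are divided by its transcript length. WT and Ythdf1-/- mice were given either saline or the T cell mitogen concanavalin A (ConA, 8 mg/kg) into the tail vein, and the liver was taken after 8 h; the age is given by the methods as 6 to 10 weeks. There were 3 WT saline, 3 Ythdf1-/- saline, 4 WT ConA and 4 Ythdf1-/- ConA mice, and KO stands below for a mouse labelled as a Ythdf1 knockout. The knockout was in the whole body, so the liver cells and the blood cells in it carried it alike.

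Ythdf1 itself lay between 12.0 and 13.9 TPM in the WT saline livers and between 18.4 and 20.8 TPM in the KO saline livers, so its level does not check the genotype labels. Hepatocyte markers (Alb, Apoa1, Apob, Ttr and Cps1) summed to between 47063 and 123609 TPM in every library, while B cell markers summed to 4.41 TPM at most. WT saline replicates 2 and 3 were nearly identical. Their median absolute log2 ratio was 0.0857 over the 100 genes most variable among the KO saline mice, against at least 0.247 in the 17 other replicate pairs. Over all genes at 1 TPM or more in every library it was 0.0735 against at least 0.1195. Calls that change when these 2 libraries are averaged into 1 are named below. WT ConA replicate 3 and KO ConA replicate 3 stood apart from the other ConA libraries on the second principal component (7.77% of the variance), and their effect is given where it touches a result. The number of reads per library is unknown, and the spread between mice was the measure of error.

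Cytokines, interferons and growth hormone bind receptors that have no enzyme activity of their own. JAK kinases sit on the inner side of these receptors and phosphorylate them and the STAT proteins, which then pair up, enter the nucleus and switch on target genes, among them the SOCS inhibitors that shut the signal off again. In the liver STAT3 drives the acute-phase response to IL-6, STAT5B carries the growth hormone signal, and STAT2 works with IRF9 in the response to type I interferon; because activation is by phosphorylation, transcript levels do not measure the activity of these proteins.

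In the WT saline liver Stat3 had the highest level of the 9 genes, at 24.8 ± 0.471 TPM (SD, n = 3), followed by Jak1 at 17.3 TPM. Next came Stat2 (14.4 TPM), Stat6, which answers to IL-4 and IL-13 (13.8 TPM), and Stat5b (12.0 TPM), and each of these neighbours overlapped with the next one between mice. Tyk2, the kinase of the type I interferon and IL-12 receptors, had 5.57 TPM and Jak2, the kinase of the growth hormone and interferon gamma receptors, 4.09 TPM. Stat5a, the close relative of Stat5b best known from the mammary gland, had 2.86 TPM. Stat4, which carries the IL-12 signal in T and NK cells, was lowest, at 0.06 to 0.19 TPM. All neighbours from Stat5b down to Stat4, and also Stat3 and Jak1, were separated without overlap in this group. After ConA the order changed: in the WT ConA liver Stat3 stood at 91.3 ± 17.6 TPM (SD, n = 4) and Stat2 at 34.3 ± 4.08 TPM, while Stat5b, Jak2, Tyk2 and Stat5a lay between 7.83 and 4.12 TPM with each neighbour overlapping the next.

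3 of the members lie side by side on mouse chromosome 11 (GRCm38.p6). Stat5b (chr11:100780731-100859004, minus strand) and Stat5a (chr11:100859351-100885169, plus strand) point away from each other with 346 bases between them, and Stat3 (chr11:100886806-100939594, minus strand) lies 1636 bases beyond Stat5a, so that the 3 genes span 158864 bases. Stat6 (chr10:127642955-127660987) and Stat2 (chr10:128270498-128292853) share chromosome 10, and both are on the plus strand. Stat4 lies at chr1:51987106-52107189 on the plus strand. Of the kinase genes, Jak1 lies at chr4:101151974-101265282 on the minus strand, Jak2 at chr19:29251803-29313095 on the plus strand and Tyk2 at chr9:21104068-21131393 on the minus strand. Positions are those of the RefSeq annotation.

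Stat5a and Stat5b are close enough in sequence that short reads cannot always tell them apart, which bears on every value given for this pair. Their coding sequences (GENCODE vM21 transcripts) share an identical run of 324 bases, from coding base 571 to 894 in both. The start of that run is shown for each gene from coding base 556 to 630, with the identical run in capitals and the 15 bases before it in lower case.
Stat5a: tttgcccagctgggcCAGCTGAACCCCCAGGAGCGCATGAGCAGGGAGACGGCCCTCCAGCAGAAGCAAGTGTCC
Stat5b: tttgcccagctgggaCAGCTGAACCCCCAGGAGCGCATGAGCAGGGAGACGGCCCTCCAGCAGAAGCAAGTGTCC
The last 75 coding bases, given here in lower case throughout, include the differing ends of the proteins. They run from base 2305 to 2379 in Stat5a and from base 2284 to 2358 in Stat5b. These windows are not aligned with each other, and lower case does not mark a difference in them. The letters cggcccatggacagtc, which open the Stat5a window, also occur within the Stat5b window.
Stat5a end: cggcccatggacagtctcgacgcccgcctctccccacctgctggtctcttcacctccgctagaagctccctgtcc
Stat5b end: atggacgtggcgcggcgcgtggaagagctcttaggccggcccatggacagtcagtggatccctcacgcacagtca
Of all stretches of 50 bases, the read length used, 83.6% of the Stat5a transcript and 88.2% of the Stat5b transcript were found in no other gene, and 608 stretches were shared by the pair. For Stat4 the share was 71.4%, with 840 stretches shared with the annotated gene Gm28177. For the other 6 members it was 100%.

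The sequence before the start of Stat2 is shown because it was the only member promoter that held 2 of the 3 motifs searched for. It covers the 250 bases upstream (chr10:128270248-128270497, plus strand, GRCm38.p6, RefSeq), and capitals mark the motif matches.
Stat2: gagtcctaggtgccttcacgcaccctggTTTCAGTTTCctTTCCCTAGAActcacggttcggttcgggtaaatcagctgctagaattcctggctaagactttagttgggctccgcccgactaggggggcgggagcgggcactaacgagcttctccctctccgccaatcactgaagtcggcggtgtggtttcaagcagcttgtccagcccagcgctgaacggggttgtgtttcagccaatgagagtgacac
The motifs were the core of the interferon-stimulated response element (TTTC on either side of any 2 bases), TTCNNNGAA, the site most STAT dimers bind, and the wider spacing that STAT6 prefers (TTC and GAA around any 4 bases), each searched on both strands of the 300 bases from 250 before to 50 after each start. The response element matched at positions -222 to -213 of Stat2, and it was found in 3.44% of all 32851 promoters and in 2 of the 12 promoters of the members, the other being Stat4 at -97 to -88. The wider motif matched at -210 to -201 of Stat2 and was found in 6.95% of all promoters. TTCNNNGAA was found in 8.3% of all promoters and in 0 of the 12, which says only that these letters are not in these windows. A match is not evidence of binding.

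**Figure D1:**
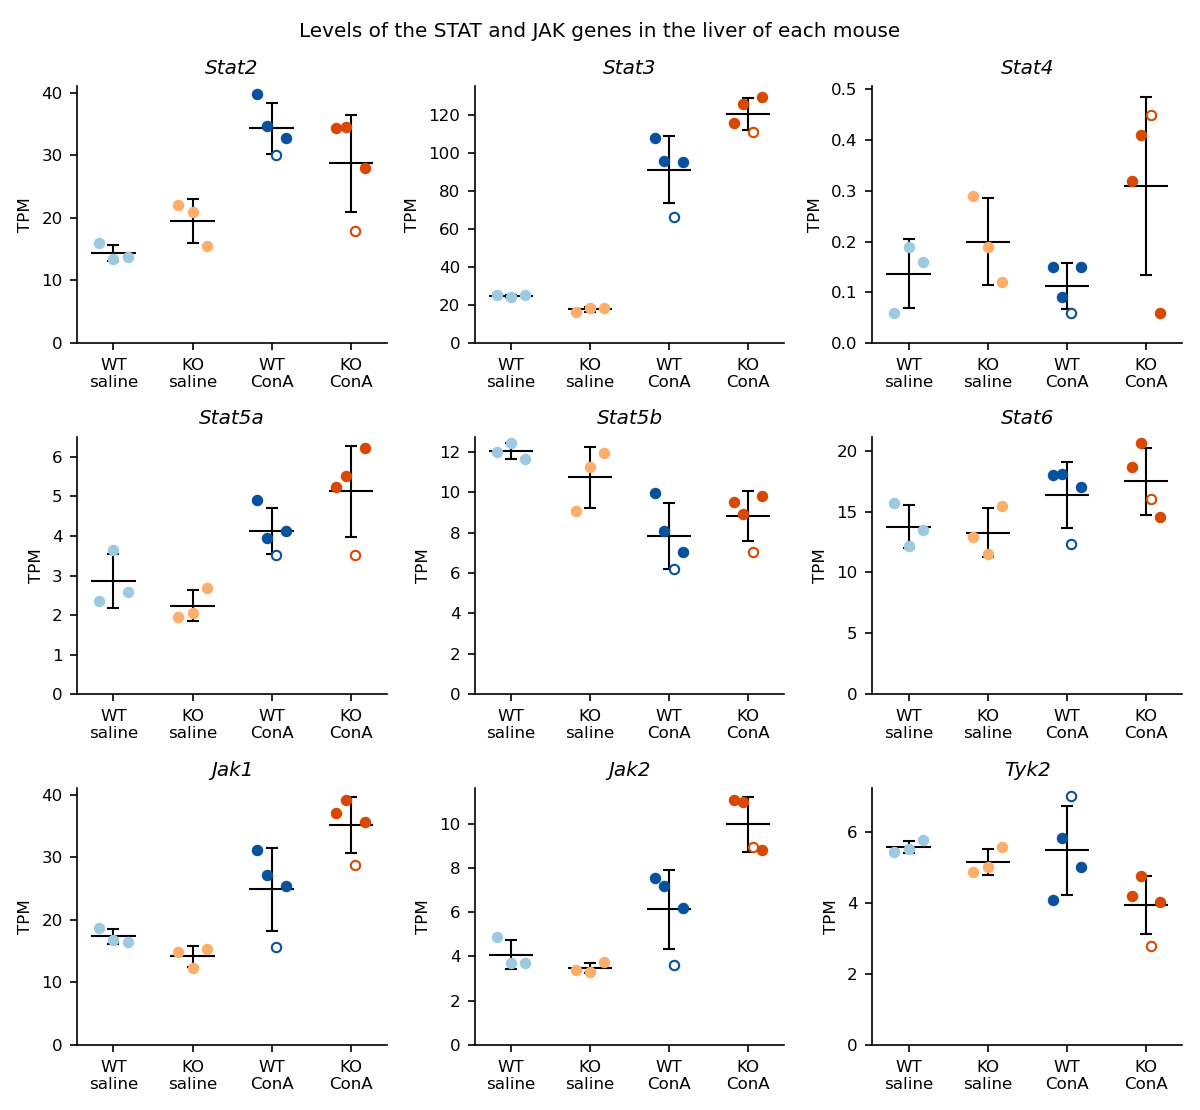
TPM of the 9 STAT and JAK genes in the liver of each mouse (points) by genotype and treatment, with the group mean (line) and SD (error bar); the vertical axis of each panel starts at 0, and open points mark replicate 3 of each ConA group. Stat3 rises from 24.8 to 91.3 TPM in WT and from 17.7 to 121 TPM in KO livers, whereas the Stat5b mean is lower after ConA and Stat4 stays under 0.5 TPM.

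The effect of ConA in WT mice was examined for each transcription factor. Stat3 had 25.2, 24.3 and 25.0 TPM in the WT saline livers and 108, 95.7, 66.4 and 95.2 TPM in the WT ConA livers. Every ConA liver was therefore above every saline liver, with replicate 3 the lowest of the treated mice. The mean was 3.68-fold higher, the log2 fold change was 1.81 (SE 0.17, limma adjusted p = 2.67e-05), and it was higher than that of 96.2% of the genes tested. Stat2 had 15.9, 13.5 and 13.7 TPM after saline and 39.7, 34.7, 30.1 and 32.7 TPM after ConA, again without overlap. Its mean was 2.39-fold higher (log2 fold change 1.20, SE 0.14, limma adjusted p = 0.000103). With the near-identical saline libraries averaged the adjusted p was 0.000323 for Stat3 and 0.00127 for Stat2.

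Stat5b moved the other way. It had 12.0, 12.4 and 11.6 TPM in WT saline and 9.98, 8.09, 6.18 and 7.05 TPM in WT ConA livers, so that all treated livers lay below all controls. The mean was 0.65 of the control level and the log2 fold change -0.58 (SE 0.17, limma adjusted p = 0.0152), but the call was lost with the saline libraries averaged (limma adjusted p = 0.0556) and without WT saline replicate 2 (0.0645). Stat5a had 2.35, 3.65 and 2.59 TPM in WT saline and 4.90, 3.95, 3.51 and 4.13 TPM in WT ConA livers, where the highest control exceeded the lowest treated liver, and its log2 fold change of 0.41 did not pass (limma adjusted p = 0.0604). It passed without WT saline replicate 2 (limma adjusted p = 0.0413) or without WT ConA replicate 3 (0.0235), so 1 library decides this call. Stat6, between 12.2 and 15.7 TPM in saline and between 12.4 and 18.1 TPM in ConA livers, had a log2 fold change of 0.23 (95% interval -0.15 to 0.61, limma adjusted p = 0.287), and it too passed without WT ConA replicate 3 (0.0249). Stat4 stayed between 0.06 and 0.19 TPM in all 7 WT livers and was not tested, because it never reached 1 TPM.

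The 3 kinase genes did not pass the test in WT mice. Jak1, which serves most interferon and interleukin receptors, had 18.7, 16.9 and 16.5 TPM after saline and 31.2, 27.2, 15.6 and 25.5 TPM after ConA. Jak2 had 4.86, 3.71 and 3.69 TPM after saline and 7.55, 7.19, 3.61 and 6.19 TPM after ConA. In both genes replicate 3 was the only ConA liver that lay below the controls, and the other ConA livers were above all of them. The log2 fold changes were 0.46 for Jak1 (SE 0.22, limma adjusted p = 0.103) and 0.46 for Jak2 (SE 0.23, limma adjusted p = 0.118). Without that library they were 0.66 (limma adjusted p = 0.00121) and 0.65 (limma adjusted p = 0.00281). Tyk2 had 5.43, 5.52 and 5.77 TPM after saline and 4.08, 5.83, 7.02 and 5.0 TPM after ConA, with the treated livers on both sides of the controls (log2 fold change -0.04, 95% interval -0.43 to 0.35, limma adjusted p = 0.863). Its highest ConA value was in the same replicate 3.

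In WT mice 3 of the 8 members tested were thus called, 2 higher and 1 lower, against 53% of all 10768 genes tested (22% higher, 31% lower). The same 3 members were the ones whose groups did not overlap, against 58% of all genes. The median log2 fold change was 0.44 over the 8 members and -0.07 over all genes. The count rests on WT ConA replicate 3 and on the scaling of the libraries: without that replicate 7 members were called, and with TPM rescaled by the median ratio 6 were called, Stat5a, Jak1 and Jak2 then being added as higher.

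In KO mice Stat3, Stat5a, Jak1 and Jak2 were higher after ConA. Stat3 had 16.2, 18.7 and 18.2 TPM in KO saline and 116, 126, 111 and 130 TPM in KO ConA livers, and the smallest treated value was far above the largest control. The mean was 6.82-fold higher (log2 fold change 2.70, SE 0.11, limma adjusted p = 1.94e-08), a larger change than that of 97.7% of the genes tested. Jak1 had 14.9, 12.3 and 15.4 TPM after saline and 37.1, 39.2, 28.7 and 35.6 TPM after ConA, without overlap (log2 fold change 1.25, SE 0.15, limma adjusted p = 2.53e-05). Jak2 had 3.41, 3.30 and 3.73 TPM after saline and 11.1, 11.0, 8.96 and 8.81 TPM after ConA, also without overlap (log2 fold change 1.29, SE 0.15, limma adjusted p = 2.84e-05). Stat5a rose as well, from 1.96, 2.05 and 2.68 TPM to 5.25, 5.52, 3.53 and 6.24 TPM (log2 fold change 0.91, SE 0.19, limma adjusted p = 0.00153).

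The other members were not called in KO mice. Stat2 had 22.03, 20.9 and 15.5 TPM after saline and 34.3, 34.6, 17.9 and 27.9 TPM after ConA, where replicate 3 of the treated mice fell among the controls. Its log2 fold change was 0.51 (SE 0.22, limma adjusted p = 0.0665), and 0.71 without that library (limma adjusted p = 0.00284). Stat5b was at 9.06 to 12.0 TPM after saline and 7.05 to 9.85 TPM after ConA (log2 fold change -0.26, limma adjusted p = 0.186), and Stat6 at 11.5 to 15.5 and 14.5 to 20.7 TPM (0.37, limma adjusted p = 0.0638). Stat6 passed on leaving out KO saline replicate 3, KO ConA replicate 3 or KO ConA replicate 4 (limma adjusted p from 0.042 to 0.045). Tyk2 had 4.88, 5.0 and 5.56 TPM after saline and 4.19, 4.75, 2.79 and 4.03 TPM after ConA, and all treated livers were below all controls, yet the log2 fold change of -0.33 did not pass (limma adjusted p = 0.119). After rescaling by the median ratio Stat5b and Tyk2 were called lower (limma adjusted p = 0.0314 and 0.00904). In all, 4 of 8 members were called, each of them higher, against 64.6% of all 10988 genes tested (33.9% higher), and groups did not overlap for 5 members against 64.3% of all genes. The median log2 fold change was 0.71 over the 8 members and 0.07 over all genes.

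**Figure D2:**
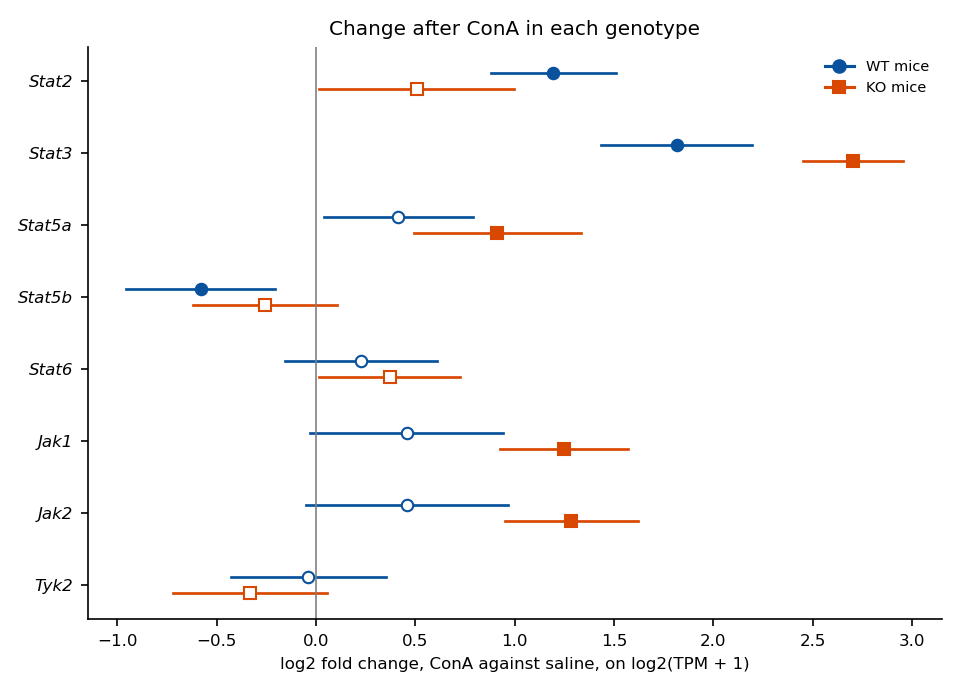
Log2 fold change on log2(TPM + 1) after ConA (horizontal axis) of the 8 members tested, in WT (circles) and KO mice (squares), with the 95% interval from limma; filled symbols are called at an adjusted p under 0.05. Stat3 lies farthest to the right in both genotypes, at 1.81 and 2.70, and Stat2 is called only in WT while Stat5a, Jak1 and Jak2 are called only in KO mice, which is not by itself a test of a difference between genotypes.

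The make-up of the STAT transcripts shifted towards Stat3 with ConA. The 6 STAT genes summed to 68.0 ± 2.81 TPM (SD, n = 3) in WT saline, 63.6 ± 1.10 TPM (SD, n = 3) in KO saline, 154 ± 26.0 TPM (SD, n = 4) in WT ConA and 181 ± 17.2 TPM (SD, n = 4) in KO ConA livers. Stat3 held 35.3% to 37.6% of that sum in the WT saline livers and 56.0% to 60.9% in the WT ConA livers. In KO mice its share was 25.9% to 28.9% after saline and 62.9% to 71.2% after ConA, so that the KO saline livers were below and the KO ConA livers above every WT liver of the same treatment. Stat2 held a mean of 21.1% in WT saline and 22.5% in WT ConA livers, but 30.7% in KO saline and 15.7% in KO ConA livers. The share of Stat6 was 20.2% in WT saline and 10.6% in WT ConA livers, and that of Stat5b was 17.7% and 5.07%.

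Ratios within a liver show the same data without the scale of the library. Stat5b transcripts exceeded those of Stat5a by 3.41 to 5.12 times in WT and 4.47 to 5.48 times in KO mice given saline. After ConA the ratio was 1.71 to 2.05 in WT and 1.58 to 1.997 in KO livers, without overlap with saline, but reads from the shared run could fall to either gene, and how they were divided was not tested. Stat3 exceeded Stat5b by 1.95 to 2.15 times in WT saline livers and by 10.7 to 13.5 times in WT ConA livers, and in KO livers by 1.52 to 1.78 and 12.1 to 15.8 times. Among the kinases the ratio of Jak1 to Jak2 stayed close, with means of 4.28 in WT saline, 4.07 in KO saline, 4.09 in WT ConA and 3.54 in KO ConA livers. The ratio of Jak1 to Tyk2, in contrast, was between 2.86 and 3.44 in WT and between 2.45 and 3.05 in KO mice given saline, and 8.24 to 10.3 in KO ConA livers. In WT ConA livers it ran from 2.23 to 7.64, the lowest value being replicate 3.

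**Figure D3:**
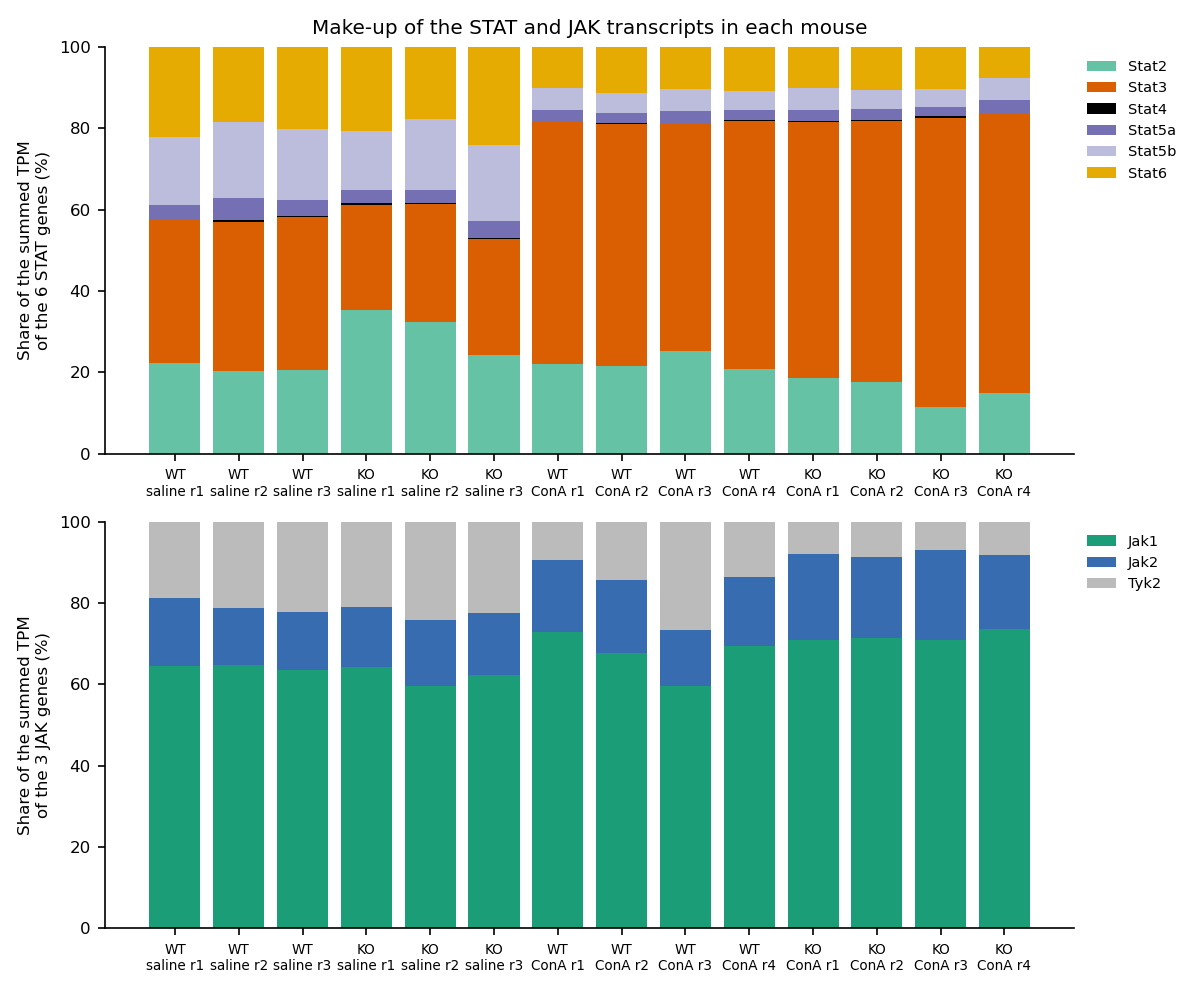
Share of each gene in the summed TPM (vertical axis, percent) of the 6 STAT genes (top) and the 3 kinase genes (bottom), with 1 bar per mouse and r for replicate. After ConA Stat3 takes 56.0% to 60.9% of the STAT sum in WT and 62.9% to 71.2% in KO livers, and in the bottom panel WT ConA replicate 3 has a Tyk2 share of 26.7%, the largest of all mice.

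The genotypes were next compared under each treatment. These comparisons use the libraries of the comparisons above, so they are not independent of them. After saline, Stat3 was lower in KO than in WT livers (16.2 to 18.7 against 24.3 to 25.2 TPM), without overlap. Its log2 difference was -0.47 (SE 0.09, limma adjusted p = 0.0192), the KO mean being 0.711 of the WT mean. The call did not hold with WT saline replicates 2 and 3 averaged (limma adjusted p = 0.0902), nor without WT saline replicate 2, WT saline replicate 3 or KO saline replicate 1 (0.0544 to 0.0993). Jak1 was also lower in every KO saline liver (12.3 to 15.4 against 16.5 to 18.7 TPM), but did not pass (log2 difference -0.28, limma adjusted p = 0.103). Stat2 was the member with the largest difference in the other direction, with 22.03, 20.9 and 15.5 TPM in KO against 15.9, 13.5 and 13.7 TPM in WT saline livers, where the lowest KO liver lay within the WT range (log2 difference 0.40, limma adjusted p = 0.0798). Without that liver, KO saline replicate 3, the difference was 0.55 and passed (limma adjusted p = 0.0168). Stat5a, Stat5b, Stat6, Jak2 and Tyk2 had log2 differences from -0.25 to -0.05, all with overlapping groups. With 1 of 8 members called the share was below that of all 10459 genes, of which 19.2% were called (12.9% lower), and 2 members did not overlap against 42.3% of all genes. The median log2 difference was -0.17 over the members and -0.10 over all genes, and rescaling by the median ratio moved the median of all genes by 0.105, after which Stat3 was at -0.35 (limma adjusted p = 0.0301).

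After ConA Stat3, Jak1 and Jak2 had their higher means in KO mice, and no member was called. Stat3 lay between 111 and 130 TPM in KO livers and between 66.4 and 108 TPM in WT livers, without overlap (log2 difference 0.42, SE 0.16, limma unadjusted p = 0.0217, adjusted p = 0.213). Jak2 did not overlap either, with 8.81 to 11.1 TPM in KO and 3.61 to 7.55 TPM in WT livers (log2 difference 0.65, SE 0.21, limma unadjusted p = 0.0102, adjusted p = 0.163). Jak1 was at 28.7 to 39.2 and 15.6 to 31.2 TPM, with the lowest KO liver below the highest WT liver (log2 difference 0.51, SE 0.20, limma unadjusted p = 0.0282, adjusted p = 0.24). Tyk2 was at 2.79 to 4.75 TPM in KO and 4.08 to 7.02 TPM in WT livers (log2 difference -0.39, limma adjusted p = 0.352), and Stat2 at 17.9 to 34.6 and 30.1 to 39.7 TPM (-0.29, limma adjusted p = 0.534). Stat5a, Stat5b and Stat6 had log2 differences of 0.25, 0.17 and 0.09. Stat4 had 0.32, 0.41, 0.45 and 0.06 TPM in KO ConA and 0.15, 0.09, 0.06 and 0.15 TPM in WT ConA livers, so 3 of the KO livers were above all WT livers and the other was level with the lowest of them. A count of 0 called of 8 members stands beside 0.428% called among all 10519 genes, 3 members with an unadjusted p under 0.05 beside 16.7% of all genes, and 2 members without overlap beside 10.5% of all genes. When the spread was estimated from all 14 libraries Jak2 was called (limma adjusted p = 0.0428). Without WT ConA replicate 3 the log2 differences fell to 0.27 for Stat3, 0.32 for Jak1 and 0.46 for Jak2.

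An interaction term over all 14 libraries tested the difference between the KO and the WT response to ConA. For Stat3 the change was larger in KO than in WT mice by 0.89 on the log2 scale (SE 0.20, 95% interval 0.46 to 1.32, limma adjusted p = 0.0314). It was the only member called of 8, beside 4.78% of all 11327 genes (2.64% higher), and the median over all genes was 0.14. The call was lost with WT saline replicates 2 and 3 averaged (limma adjusted p = 0.1), and it held after rescaling (0.72, limma adjusted p = 0.0393). It was also lost on leaving out any single one of WT saline replicate 2 or 3, KO saline replicate 1 or 2, or KO ConA replicate 2 or 4 (limma adjusted p from 0.0562 to 0.101). Jak1 and Jak2 had values of 0.79 (95% interval 0.22 to 1.36, limma adjusted p = 0.0911) and 0.83 (0.25 to 1.41, limma adjusted p = 0.0836). With both ConA replicates 3 left out, a choice made after seeing the data, these 2 kinases were called beside Stat3 (limma adjusted p = 0.0173 for Jak1 and 0.027 for Jak2). Stat2 was the member with the largest value in the other direction, -0.69 (95% interval -1.29 to -0.09, limma adjusted p = 0.145), and was called only after rescaling (-0.86, limma adjusted p = 0.0447). The intervals for Stat5a, Stat5b, Stat6 and Tyk2 included 0.

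**Figure D4:**
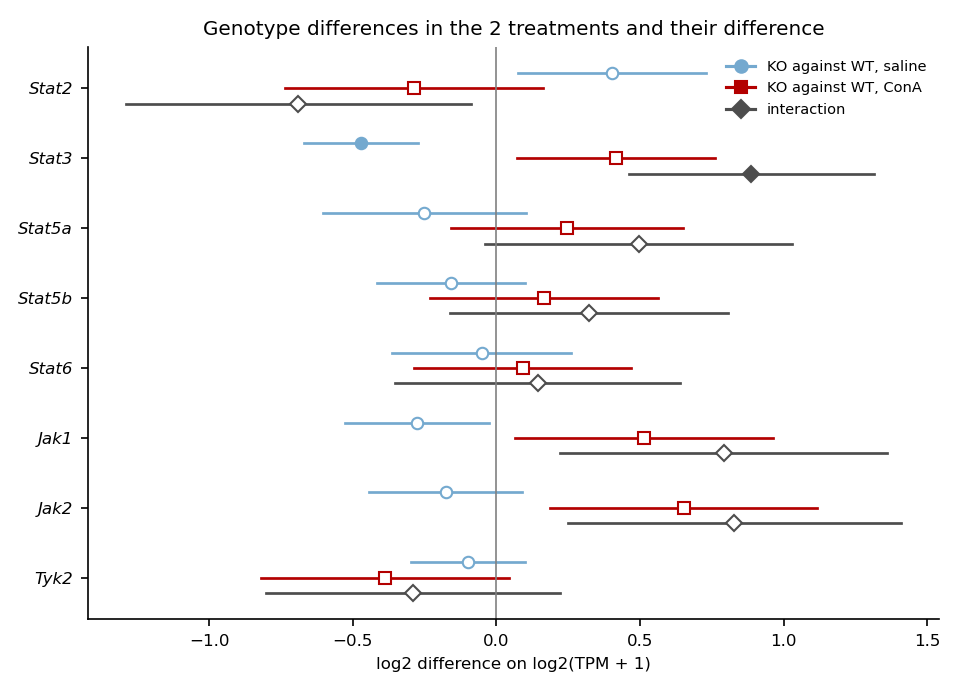
Log2 difference on log2(TPM + 1) (horizontal axis) between KO and WT mice after saline (circles), after ConA (squares) and the interaction of genotype and ConA (diamonds), with the 95% interval from limma; filled symbols are called at an adjusted p under 0.05. For Stat3 the saline difference is -0.47, the ConA difference 0.42 and the interaction 0.89, and Jak1 and Jak2 have the same order of signs without a call.

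The cell types in the tissue moved with ConA too, and in whole liver fewer cells of a type and less RNA per cell cannot be told apart. Of 5 hepatocyte markers 4 were lower in WT mice after ConA. In KO mice 4 were lower as well, and Apob was higher (log2 fold change 0.39, limma adjusted p = 0.0334). Beside these marker counts, 31% of all genes tested were lower in WT mice, and 64.6% were called in either direction in KO mice. The sum of the 5 ran from 102397 to 123609 TPM (WT saline), 96971 to 117562 TPM (KO saline), 52694 to 75719 TPM (WT ConA) and 47063 to 59841 TPM (KO ConA), with none at 0. The sum of 9 neutrophil markers ran from 9.61 to 11.8 TPM (WT saline), 5.44 to 11.0 TPM (KO saline), 328 to 580 TPM (WT ConA) and 428 to 987 TPM (KO ConA), with Ngp at 0 in all KO saline livers, and 8 of the 9 were under 1 TPM in at least 1 WT saline liver. Of the 9 only Ly6g went the other way, without a call. Its log2 fold change was -1.15 in WT (limma adjusted p = 0.0631) and -0.21 in KO mice (limma adjusted p = 0.37). The 5 Kupffer cell markers had sums from 58.4 to 103 TPM (WT saline), 24.8 to 55.0 TPM (KO saline), 4.65 to 27.5 TPM (WT ConA) and 4.69 to 19.2 TPM (KO ConA). Beside the same shares of all genes, 4 were called lower in WT and 3 in KO mice. In KO mice Timd4 and Marco were not called (log2 fold change -0.14 and 0.60, limma adjusted p = 0.514 and 0.0754). The 13 T and NK cell markers, the cells in which Stat4 is best known, had sums from 2.94 to 5.21 TPM (WT saline), 5.64 to 7.30 TPM (KO saline), 5.54 to 11.6 TPM (WT ConA) and 9.16 to 15.9 TPM (KO ConA), and most stayed under the 1 TPM needed for a test. The 5 markers of monocytes and recruited macrophages had sums from 8.68 to 18.7 TPM (WT saline), 14.99 to 16.3 TPM (KO saline), 26.7 to 52.4 TPM (WT ConA) and 26.99 to 65.9 TPM (KO ConA), with none at 0 in every liver of a group.

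Marker sums were also set side by side between the genotypes after saline, where Stat3 was lower in KO mice. Of the sums above, those of Kupffer cells were lower in KO saline livers (24.8 to 55.0 against 58.4 to 103 TPM). Those of T and NK cells were higher (5.64 to 7.30 against 2.94 to 5.21 TPM), both without overlap. After saline 0 of the 5 Kupffer cell markers were called, and 0 T and NK cell markers could be tested. The 5 stellate cell markers had sums from 7.14 to 27.9 TPM (WT saline) and 29.6 to 45.4 TPM (KO saline), without overlap, and from 2.94 to 7.56 TPM (WT ConA) and 4.07 to 11.5 TPM (KO ConA). The 4 cholangiocyte markers ran from 3.97 to 5.39 TPM (WT saline) and 6.16 to 15.3 TPM (KO saline), also without overlap, and from 8.03 to 11.9 TPM (WT ConA) and 9.11 to 21.0 TPM (KO ConA). The 6 endothelial markers ran from 13.8 to 22.9 TPM (WT saline), 22.7 to 39.9 TPM (KO saline), 13.02 to 34.3 TPM (WT ConA) and 16.3 to 45.6 TPM (KO ConA). Of these lists Des and Lrat (stellate), Pecam1 and Clec4g (endothelial) and Krt7 (cholangiocyte) were higher in KO saline livers, and the hepatocyte marker Apob was lower (limma adjusted p from 0.021 to 0.0437), and none of the 6 was called with the WT saline pair averaged (0.101 to 0.153). The part of all these shifts in the values of the STAT and JAK genes was not tested.

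Genes around the members were described from lists written with earlier results of these data known. Beside the counts that follow, 22% of all genes tested were higher and 31% lower after ConA in WT mice, with a median log2 fold change of -0.07, and 33.9% were higher in KO mice, with a median of 0.07. Of 26 ligand genes only 5 could be tested in WT mice, 2 of them (Ifng and Il23a) through their ConA livers. With 2 of the 5 tested in that way, no count of calls is given. Ifng, the gene of interferon gamma, went from at most 0.14 TPM to between 1.01 and 3.86 TPM in WT mice. It had 5.02 to 12.1 TPM in KO ConA livers, a difference from WT that was not called (limma adjusted p = 0.0674). Thpo, thrombopoietin, a ligand that signals through JAK2, rose from at most 11.6 to at least 17.9 TPM in WT mice, whereas Il15, which sustains NK cells, fell from at least 3.19 to at most 1.36 TPM. Csf3, the neutrophil growth factor, reached between 2.98 and 14.6 TPM in the KO mice and between 0.77 and 2.21 TPM in the WT mice given ConA, again not called between genotypes (limma adjusted p = 0.0739).

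Of 31 receptor chains that bind JAK kinases 22 were tested in WT mice, and 5 were lower, also with the saline pair averaged. Under 1 TPM in at least 1 saline liver were 7 of the 22, and these entered the test through their ConA livers. Most of the higher calls were among these 7, so no count of higher calls is given. The median log2 fold change was 0.55 over the 22, with these 7 included. Ghr, the growth hormone receptor on which STAT5B depends, fell from 213 to 225 TPM in WT saline to 65.8 to 90.0 TPM in WT ConA livers (log2 fold change -1.47, limma adjusted p = 2.31e-05). Lifr, a partner of gp130, was lower in WT mice as well (log2 fold change -1.57, limma adjusted p = 0.000429). Il22ra1, the IL-22 receptor chain of hepatocytes, rose from 1.28 to 1.67 TPM to 8.06 to 17.4 TPM (2.35, limma adjusted p = 3.69e-05). Csf3r, the receptor for the Csf3 product and itself one of the neutrophil markers, rose from 0.95 to 1.33 TPM to 5.28 to 8.54 TPM.

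Of 20 inhibitor genes 6 were higher and 2 lower in WT mice, and 14 were higher and 2 lower in KO mice; the difference between these counts was not tested. Without WT ConA replicate 3 the number higher in WT mice was 13. Of the 20 genes 4 were under 1 TPM in a WT saline liver and 5 in a KO saline liver. Such genes entered the test through ConA livers, so the counts of higher genes rest in part on the filter. Socs1, which blocks the JAK kinases directly, went from 0.48 to 0.82 TPM in WT saline to 65.5 to 150 TPM in WT ConA livers. It was at 82.3 to 142 TPM in KO ConA livers. In WT mice Socs1 entered the test through its ConA livers, so no p-value is given, and it counts among the 6 called higher. Socs3, the inhibitor that STAT3 induces, rose from 3.37 to 4.43 TPM to 36.2 to 71.8 TPM (3.31, limma adjusted p = 4.38e-06), with 51.6 to 114 TPM in KO ConA livers. Ptpn2, a phosphatase of JAK1 and the STAT proteins, rose by 1.79 in WT and by 2.97 in KO mice on the log2 scale, and the interaction was called (1.18, limma adjusted p = 0.0355) but not with the averaged saline libraries (limma adjusted p = 0.104). Pias4, a SUMO ligase of the PIAS group, had an interaction of 0.81 (limma adjusted p = 0.0229; averaged 0.0846), with a change of 0.11 in WT mice that did not pass.

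Genes known as targets of the members were counted in the same way. Of 22 STAT3 targets 21 were higher in WT mice, with a median log2 fold change of 2.60 against -0.07 for all genes, and 3 of the 22 were under 1 TPM in a saline liver. The count was 21 with the saline pair averaged. Lcn2, the iron-binding lipocalin of the acute phase, rose from 53.4 to 71.1 TPM to at least 11859 TPM (7.78, limma adjusted p = 2.88e-08). Saa1 and Saa2, near-identical acute-phase genes between which reads may be divided, rose by 7.32 and 8.60 on the log2 scale. In KO mice 21 of the 22 were higher as well. Between KO ConA and WT ConA livers 0 were called. In the interaction 6 (Junb, Myc, Fga, Fgg, Saa1 and Saa2) were called higher, of which 0 remained called with the averaged saline libraries. After saline 8 of 19 tested targets were lower and 1 higher in KO than in WT livers. Beside them 12.9% of all genes were lower, and 0 targets were called with the pair averaged. The log2 differences after saline and after ConA were -1.44 and 0.10 for Saa1, -1.06 and 0.06 for Saa2 and -0.17 and 0.77 for Myc. For Junb, Fga and Fgg they were -0.79 and 0.37, -0.76 and 0.40, and -0.58 and 0.45.

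Of 18 targets of the STAT2 complex 17 were higher in WT mice (median log2 fold change 1.87) and 17 in KO mice (1.97). The WT count was 15 with the saline pair averaged, where Irf9 and Rsad2 lost their calls (limma adjusted p = 0.0633 and 0.0659), and 3 of the 18 were under 1 TPM in a saline liver. Isg15, a ubiquitin-like interferon-induced gene, rose from 31.7 to 37.1 TPM to 545 to 757 TPM in WT mice (4.20, limma adjusted p = 1.1e-07), and Irf7, a factor that amplifies interferon production, from 27.8 to 30.9 TPM to 141 to 168 TPM. In KO ConA livers these genes were at 483 to 884 and 108 to 143 TPM. Of 12 growth hormone targets of STAT5 tested in WT mice 5 were lower and 3 higher, with a median of -0.72. Without WT saline replicate 1 the number lower was 3, and 2 of the 12 were under 1 TPM in a WT saline liver. Igfals, which stabilises IGF1 in the blood, fell from 110 to 148 TPM to 5.74 to 12.4 TPM (-3.86, limma adjusted p = 2e-06), whereas Cish, a SOCS family gene, rose from 6.02 to 10.03 TPM to 13.2 to 19.5 TPM. In the fit of those groups alone it was the only list with calls between KO ConA and WT ConA livers, where Mup20, a major urinary protein gene of a multigene family, was lower (55.9 to 79.1 against 116 to 294 TPM, limma adjusted p = 0.0369), as was Slco1a1, an organic anion transporter gene (0.10 to 1.44 against 6.38 to 31.0 TPM, limma adjusted p = 0.0369) that ran from 4.15 to 51.7 TPM among the WT saline mice alone. These calls were not stable: with 1 library left out the number lower ran from 0 (without any one of the KO ConA replicates, or without WT ConA replicate 2 or 3) to 3 (without WT ConA replicate 1). With all 14 libraries in the fit the ligands (2), the inhibitors (1), the STAT3 targets (2) and the Stat4 and Stat6 lists (1 each) had calls higher in KO mice as well, and the receptor chains had 1 lower.

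The remaining lists belong to Stat4 and Stat6 and were tested on few genes. Of 5 T helper 1 genes tested in WT mice 4 (Ifng, Il18r1, Gzmb and Il12rb1) entered the test through their ConA livers, so no count of calls is given. Gzmb, the granzyme B gene of cytotoxic cells, had 0.05 to 0.61 TPM after saline and 2.88 to 9.93 TPM after ConA. For the 5 tested genes linked to STAT6 no count of calls is given either, because Chil3 is among them. Il4ra, the IL-4 receptor chain through which STAT6 is activated, rose from 6.39 to 6.98 TPM to 13.2 to 19.1 TPM (log2 fold change 1.09, limma adjusted p = 0.000313). Chil3, a chitinase-like gene of macrophages and neutrophils, rose from 0 to 0.05 TPM to 10.5 to 18.3 TPM, and it too entered the test through the ConA livers. Neither list had a call between KO ConA and WT ConA livers in the fit of those groups alone.

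**Figure D5:**
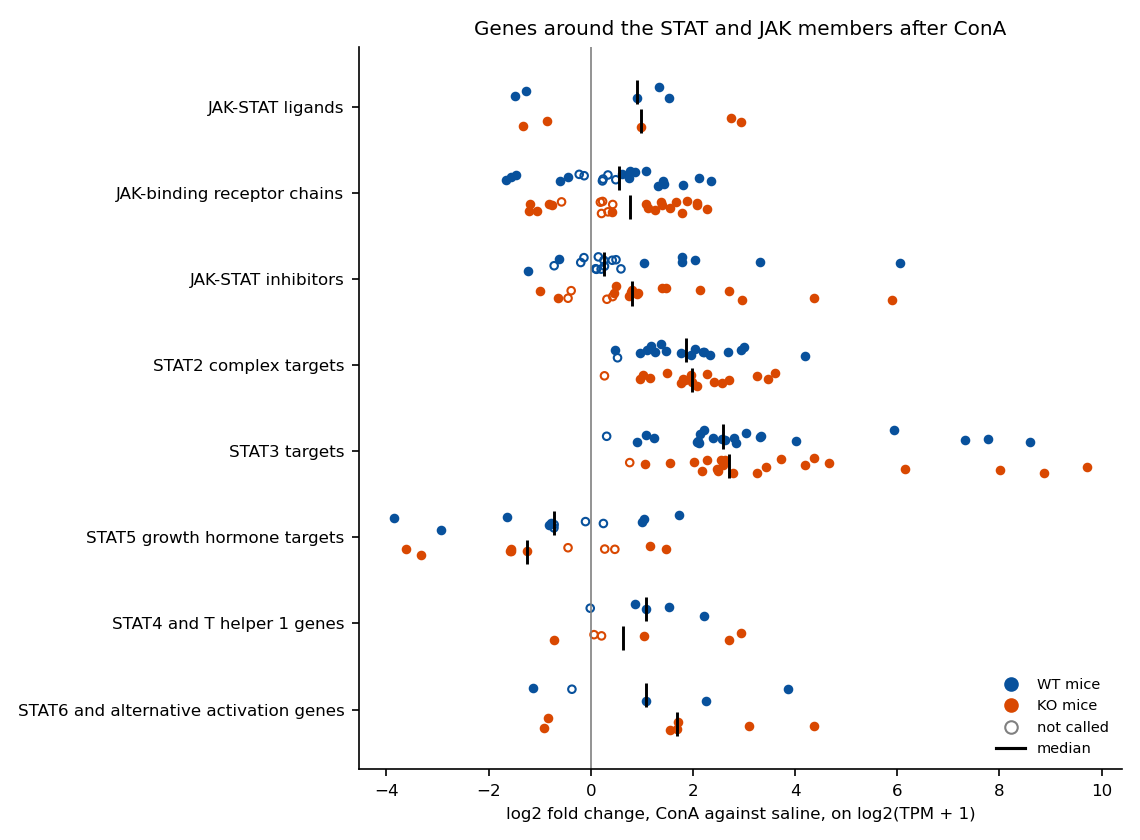
Log2 fold change on log2(TPM + 1) after ConA (horizontal axis) of the tested genes of each list (rows), in WT mice (blue, upper row of each pair) and KO mice (orange, lower row); filled points are called at an adjusted p under 0.05, black bars are medians, and the small vertical scatter of points has no meaning. The STAT3 targets (median 2.60 in WT) and the STAT2 complex targets (1.87) lie almost wholly above 0, and the median of the STAT5 growth hormone targets is -0.72.

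The members were also set beside each other and beside all other genes over the 14 livers, as a description, since the treatment is shared by all of these values. Jak1 and Jak2 followed each other most closely among the members (Pearson r = 0.98 on log2(TPM + 1), and 0.918 for deviations from the group means). Stat3 followed Jak1 with r = 0.905 and Stat5a with 0.89, while Tyk2 ran against Jak2 (r = -0.637; -0.344 for the deviations). Stat5b ran against Stat3 over all livers (r = -0.604) but with it inside the groups (0.787). The genes nearest to Stat3 were Fgg, the fibrinogen gamma chain (r = 0.998), Uap1 and Pim1; Fgg and Pim1 are also on the list of STAT3 targets. Nearest to Stat2 were Cic, Zfp142 and Cant1 (r = 0.95 to 0.969), and near to Stat5b were Igf2r (0.958) and Zc3h7b (0.938). Nearest to Stat5a were Isy1, Gpr107 and Actr8, to Stat6 Cdyl, Dennd5a and Wdr35, to Jak1 Trak2, Mtrex and Tlk2, to Jak2 Trim56, Arhgef5 and Atp6v1a, and to Tyk2 Tepsin, Os9 and Ing4. Stat4, near the floor of the measurement, was nearest to Prkch, Plpp1 and Itga9 (0.814 to 0.835). When likeness was measured on deviations from the group means, 2 of the 27 nearest genes were kept.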

How the data were processed

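Liver RNA of 14 mice was analysed from 1 table per mouse. The authors used 50-base single-end sequencing (BGISEQ-500) and deposited TPM values for 17656 genes. The submitters' processing notes name Bowtie2, RSEM 1.3.1 and GRCm38.p6, whereas the methods name STAR and HTSeq, and which of them made the TPM values is not settled. TPM are shares of a library, so a rise or a fall of abundant genes after ConA shifts the share left for all others. For that reason a rescaled alternative was run. The median log2 fold change of all genes after ConA was -0.07 in WT and 0.07 in KO mice. Read numbers are unknown, so no count model and no counting interval could be used. Where nothing else is said, p-values measure the spread between these mice.

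Groups were compared with limma 3.58.1 (lmFit, eBayes with trend, R 4.3.3) on log2(TPM + 1), with Benjamini-Hochberg adjustment over all genes tested and calls at an adjusted p under 0.05. Fold changes on this scale understate low genes, and folds of means are ratios of mean TPM. A gene was tested when the number of libraries at or above 1 TPM was not below the size of the smaller group. Each pair of groups was fitted alone, and the interaction with all 14 libraries. The fits were also tested on simulated data, with independent noise for each library and no near-identical pair. Of 100 genes changed by 1 on the log2 scale, up or down, 48 were recovered in the interaction. In the comparisons of 2 groups 64 to 77 of 100 were recovered, so a change of that size can go uncalled. Members and lists were chosen with earlier results of these data known. Named are all members, from each list the 3 genes of smallest p for genotype under ConA and for ConA in WT mice, and the 3 genes nearest to each member, of which 1 is not reported here; Junb, Fga and Fgg are named as interaction calls, Irf9 as a lost call, and Ngp and 6 markers called after saline as marker values, after their values were seen. Mx1, Mx2 and Tf of the lists were not analysed here.

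The settings varied were the pseudocount (0.1), the filter (5 TPM or none), median ratio scaling, robust eBayes, a replicate block, all 14 libraries in 1 fit, with WT saline replicates 2 and 3 averaged, each library left out and, chosen after seeing the data, both ConA replicates 3 left out. Sequences came from RefSeq (GRCm38.p6) and GENCODE vM21, and figures were drawn with matplotlib 3.10.9.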

Additional observations from a re-analysis of the deposited data

Results flagged for a closer look

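The change of Stat3 after ConA differed between the genotypes: the interaction was 0.89 on the log2 scale (SE 0.20, limma adjusted p = 0.0314), with a change of 1.81 in WT and 2.70 in KO mice. All 4 KO ConA livers were above all 4 WT ConA livers, and all 3 KO saline livers below all 3 WT saline livers. Over its alternatives the adjusted p ran from 0.00676 to 0.101. No liver stood apart from its group of 4 by Dixon's test in any of the 18 groups tested, of which chance alone flags about 1 in 20.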

How the results depend on the processing

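The limits are few mice, unknown depth and a near-identical pair of WT saline libraries. Of 642 member values recomputed under the alternatives 597 kept direction and side of the threshold, 15 lost the call, 22 gained it and 8 reversed sign. In WT ConA against WT saline 6 members were called with median ratio scaling, and from 3 to 7 with 1 library left out (7 without WT ConA replicate 3). In KO saline against WT saline 0 were called with the saline pair averaged and with all 14 libraries, and 0 to 2 with 1 library left out. In KO ConA against WT ConA 1 was called with all 14 libraries. In the interaction 0 were called with the pair averaged, 2 with median ratio scaling, 3 without both ConA replicates 3, and 0 to 1 with 1 library left out. Reversed values, all uncalled, were Tyk2 in WT ConA against WT saline (0.0488 with scaling, -0.149 to 0.0705 with 1 library left out), Stat6 in KO saline against WT saline (0.065 with scaling, -0.158 to 0.0411), Tyk2 there (0.0073 with scaling), Stat6 in KO ConA against WT ConA (-0.029 to 0.172 with 1 library left out) and the Stat6 interaction (-0.0212 with scaling). The causes were not tested.

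Whether a replicate number marks mice that belong together is not known, so the main fits had no block. The deviations of same-numbered mice correlated between -0.198 (WT ConA against WT saline, replicate 3) and 0.407 (KO ConA against WT ConA, replicate 3). In none of the comparisons was every pair above 0.1. Whether same-numbered mice shared a batch was not tested. A fit with the replicate number as a block called 2 members in KO saline against WT saline, adding Stat2 (limma adjusted p = 0.0468). It also called Stat2 in KO ConA against KO saline (0.0335) and lost Stat5b in WT ConA against WT saline (0.0584), and it changed no other call of a member.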
